A study of Mus musculus with 2 samples.

Results

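The 10 genes described here carry insulin and insulin-like growth factor (IGF) signalling: the ligand genes Igf1 and Igf2, the receptor genes Igf1r, Insr and Igf2r, the adaptor genes Irs1 and Irs2, and the binding protein genes Igfbp3, Igfbp4 and Igfbp5. Their peaks of N6-methyladenosine (m6A), a methyl mark on adenosines inside mRNA, were those with a summit in the RefSeq span of the gene on GRCm38, the assembly of mm10. This gave 42 peaks of 26584 in the deposited list, in 9 of the 10 genes. The list comes from methylated RNA immunoprecipitation sequencing of whole uterus from wild-type females aged 6 to 8 weeks, mated with fertile males and taken on gestation day 4, with the plug day as day 1. The 1 immunoprecipitated library (anti-m6A IP) and the 1 input library, made without antibody, both held polyA RNA of mixed cells. How many animals were used, of which strain and whether they were pooled is not given here. With 1 library of each kind no p-value between samples can be given, and intervals below are 95% intervals of counting error alone. Every peak name carries a run name, D8NegIP-Posinput, whose day differs from the labelled one. The labels were followed, and whether the peaks belong to day 4 and to the labelled input could not be settled.

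Igf1 and Igf2 are secreted growth factors. Igf1r and Insr are receptor tyrosine kinases that recruit Irs1 and Irs2, docking proteins which pass the signal on to the PI3K and Akt kinases. Igf2r has no kinase domain and carries Igf2 to lysosomes, and the Igfbp proteins hold the ligands outside the cell. In the mouse uterus Igf1 is known as an oestrogen-induced product of the stroma, which acts on the epithelium, and around implantation the stroma turns into decidua.

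A fold enrichment is the IP pileup at the summit plus 1, over the local background plus 1, as the authors' peak caller gave it. Each pileup and background was solved from that value and the deposited p-value. The members' peaks rested on 9 to 189 IP fragments (median 38.5), against a median of 19 over the 22994 peaks in all protein-coding genes. The median background, scaled to the IP library, was 3.84 fragments for the members, against 1.58 in all protein-coding genes. The background is not an expression level. In this mixed tissue, fewer cells of a type and less RNA per cell cannot be told apart.

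No genome was used here, but RefSeq promoter windows on GRCm38.p6 overlap some peaks of these genes, and 3 stretches are shown because they lie in the peaks at the starts of Irs2, Igf1r and Igf2r. The first is chr8:11007600-11007899 on the minus strand, 1030 to 1329 bases past the Irs2 start, and lies whole inside the strongest peak of the 10 genes. The second is chr7:67952077-67952256 on the plus strand, the bases before the Igf1r start that a peak covers. The third is chr17:12769856-12769956 on the minus strand, before the Igf2r start, also under a peak. Only the long non-coding RNA gene Airn is annotated there, and it runs on the plus strand. Each stretch reads 5′ to 3′ along the strand named. Capitals mark GGAC, a core form of the sequence that the m6A writer complex prefers, and the base that follows was not considered.
Irs2: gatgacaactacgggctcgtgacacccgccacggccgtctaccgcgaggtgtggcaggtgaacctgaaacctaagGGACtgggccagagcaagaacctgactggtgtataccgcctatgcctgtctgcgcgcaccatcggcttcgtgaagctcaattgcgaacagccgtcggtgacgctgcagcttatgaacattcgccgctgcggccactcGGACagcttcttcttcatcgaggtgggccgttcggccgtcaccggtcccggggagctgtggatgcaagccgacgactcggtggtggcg
Igf1r: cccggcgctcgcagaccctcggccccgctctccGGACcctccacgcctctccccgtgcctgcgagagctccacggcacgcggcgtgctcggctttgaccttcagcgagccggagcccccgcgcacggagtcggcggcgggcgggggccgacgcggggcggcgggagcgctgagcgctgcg
Igf2r: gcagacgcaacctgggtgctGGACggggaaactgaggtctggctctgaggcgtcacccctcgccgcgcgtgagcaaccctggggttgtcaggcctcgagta
The Irs2 stretch holds GGAC in 2 places on this strand and in 1 on the other, and the Igf1r and Igf2r stretches hold it in 1 place on the strand shown and none on the other. For the Igf2r stretch that other strand is the one of Airn. Such matches are common. On the strand corresponding to the one shown, GGAC was present in 66.1% of the 32851 RefSeq promoter windows at the length of the Irs2 stretch, in 46.8% at the length and place of the Igf1r stretch and in 30.1% at those of the Igf2r stretch. The matches are therefore a description of the letters under the peaks and do not locate a methylated base.

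Of the 10 members, 9 (90%, Wilson interval 59.6 to 98.2) had a peak, against 9831 of 21900 protein-coding genes (44.9%, 44.2 to 45.6). With only peaks of −log10 q of at least 5 the same count was 9, against 41.3% of protein-coding genes. Igf2 was the member without a peak. At least 4 peaks, a number chosen after the values were seen, were present in 7 of the 10, against 8.37% of protein-coding genes. The spans of the members were longer, with a median of 41.3 kb against 17.1 kb for protein-coding genes. Whether span or expression plays a part in these counts was not tested. The members and the wider list below were chosen with earlier results of these data known, so their Wilson intervals do not test enrichment. The median fold enrichment of the 42 peaks was 7.98 (quartiles 5.52 and 10.9), against 7.26 (quartiles 5.57 and 10.3) over peaks in all protein-coding genes. Most of the members' peaks were thus of ordinary height for the list, and the highest ones belonged to the adaptor genes.

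**Figure D1:**
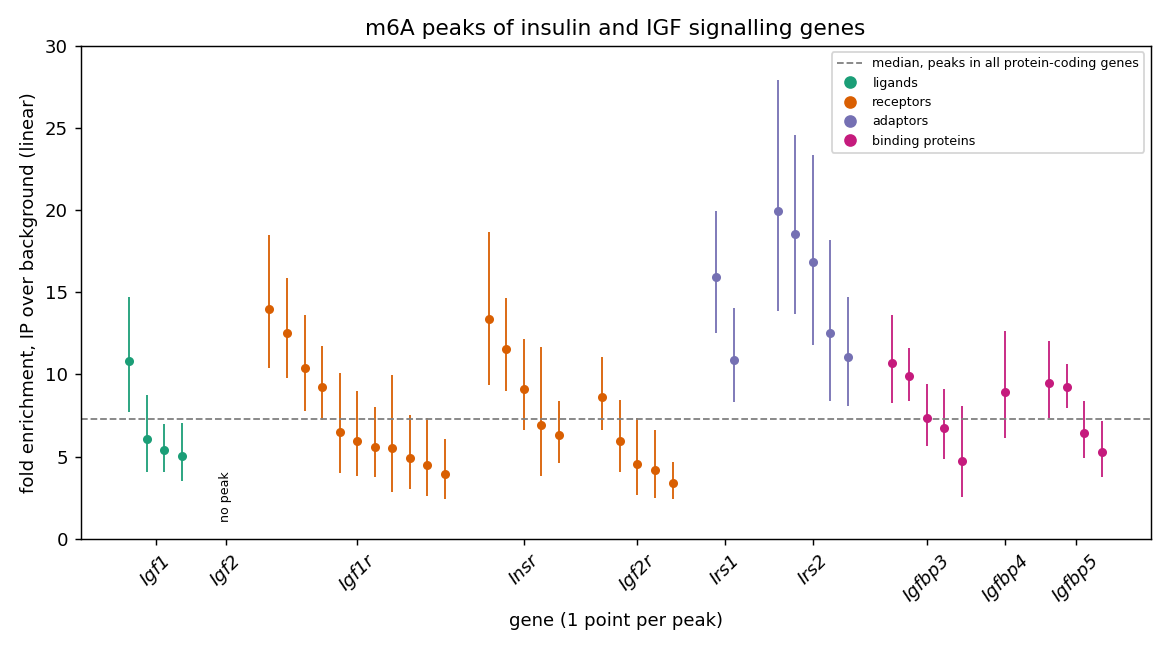
Fold enrichment (linear axis) of each of the 42 peaks, 1 point per peak, sorted within each gene, with bars for the 95% Poisson interval of the IP pileup and a dashed line at the median of peaks in all protein-coding genes, 7.26. All 7 peaks of Irs1 and Irs2 lie above that line, while Igf1r, Insr, Igf2r, Igf1, Igfbp3 and Igfbp5 each have peaks on both sides of it.

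Among the ligands, Igf1 had 4 peaks and Igf2 none. The Igf1 peaks had a fold enrichment of 5.02 (3.48 to 7.02) at chr10:87913515-87913764, 6.05 (4.03 to 8.77) at chr10:87914383-87914623, 10.8 (7.72 to 14.7) at chr10:87915132-87915681 and 5.38 (4.06 to 6.99) at chr10:87930500-87930737. The first 3 stood close together, with gaps of 618 and 508 bases, at 70.3% to 72.6% of the span from the 5′ end. The last lay 14818 bases further on. The third, with 38 IP fragments over a background of 2.61, stood above the first and the last beyond their counting intervals, but its interval overlapped that of the second. The last had the most IP fragments, 54, over the highest background of the gene, 9.23. No summit lay in the part of the Igf1 span shared with the antisense transcript Igf1os.

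No peak had its summit in the 16.0 kb span of Igf2, which also holds the microRNA gene Mir483 and part of the antisense transcript Igf2os. The nearest peak outside that span had its summit 139.4 kb away, in the troponin gene Tnnt3. The peak list says nothing of read depth elsewhere, so an Igf2 transcript without m6A and an Igf2 transcript too scarce to call cannot be told apart.

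The receptor genes carried 21 of the 42 peaks, and in each of them the strongest lay near an end of the span. Igf1r had 11. The highest, at chr7:68225878-68226650, had a fold enrichment of 14.0 (10.4 to 18.5) from 48 fragments over a background of 2.499. It was followed by 12.5 (9.76 to 15.9) at chr7:68231281-68232107 and 10.4 (7.74 to 13.6) at chr7:68230696-68231142, which were 138 bases apart. All 3 lay between 97.4% and 99.3% of the span, the last of them 1894 bases from its 3′ end. Another, 9.26 (7.21 to 11.7) at chr7:68003718-68004446, was the deepest of the gene together with the second, at 67 fragments each, and stood 51922 bases past the start.

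The other 7 Igf1r peaks lay between 3.92 and 6.50, and their intervals overlapped one another. They included a peak of 5.96 (3.79 to 8.97) with its summit 383 bases past the Igf1r start. A further peak, at chr7:67952077-67952371, crossed that start with its summit 16 bases before the span and so was not a member. Its fold enrichment was 6.12 (3.31 to 10.5) from 11 fragments, close to that of the peak just inside. None of the summits fell in the long non-coding RNA genes Gm51487 and Gm51488 inside the Igf1r span.

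Insr had 5 peaks, the strongest 13.4 (9.34 to 18.7) at chr8:3279128-3279635, with its summit 348 bases from the high-coordinate end of the span. At the other end stood peaks of 11.6 (8.996 to 14.6) at chr8:3153355-3154304, with 67 fragments, and of 9.08 (6.63 to 12.2) at chr8:3155372-3156095. The peaks at the 2 ends did not differ beyond their counting intervals. Between them, 6.29 (4.61 to 8.40) and 6.90 (3.82 to 11.7) were measured at chr8:3258508-3259030 and chr8:3261857-3262057. The second of these rested on only 12 fragments.

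Igf2r had the lowest strongest peak of the 9 genes with one. That peak, at chr17:12683422-12684305, had a fold enrichment of 8.62 (6.60 to 11.1) from 59 fragments, 1363 bases from the 3′ end. A weaker one of 4.57 (2.69 to 7.36) lay 1298 bases to its side at chr17:12685604-12685803. The other 3 had values of 4.17 (2.49 to 6.61), 3.39 (2.39 to 4.68) and 5.94 (4.05 to 8.45), and their summits also lay in the span of Airn, the long non-coding RNA that is transcribed from within Igf2r in the opposite sense. The first of these 3, at chr17:12741351-12741631, had its summit 149 bases past the start of the Airn span. The others, at chr17:12768580-12769123 and chr17:12769316-12769645, lay 947 and 242 bases past the Igf2r start. Another peak, 4.97 (3.26 to 7.30) at chr17:12769856-12770605, had its summit 337 bases outside the span and upstream, where only Airn is annotated. Airn had 24 peaks in all, 21 of them outside Igf2r. The peaks carry no strand, so the 3 shared ones cannot be told apart between Igf2r and Airn. Without them Igf2r kept 2 peaks, both near its 3′ end.

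**Figure D2:**
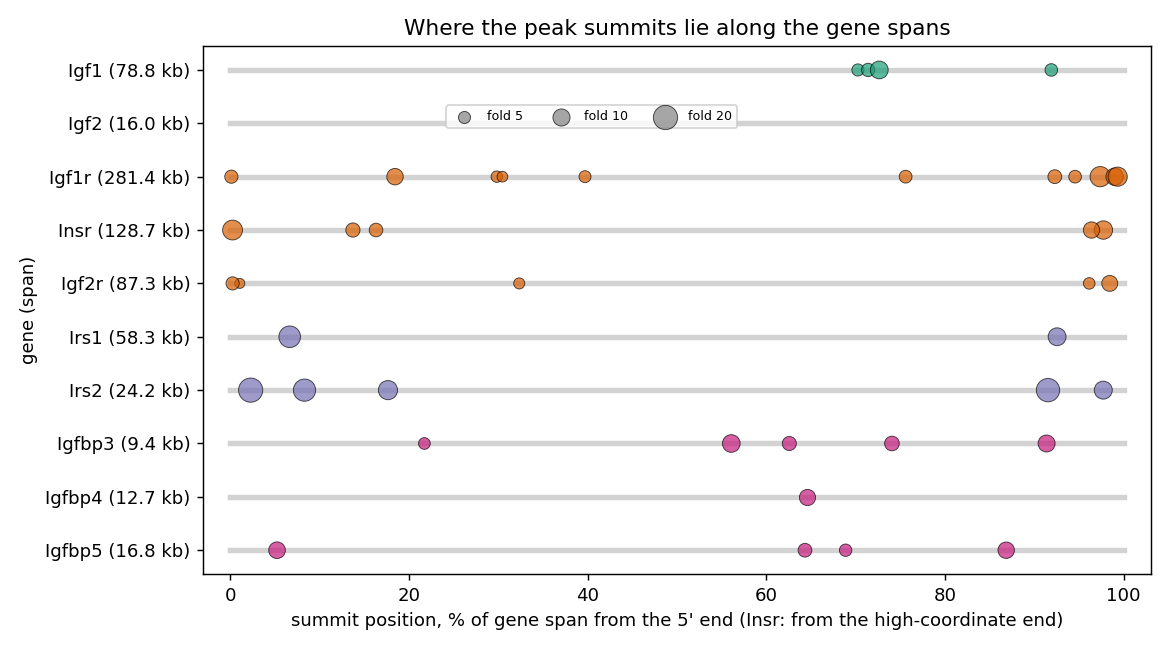
Position of each peak summit as a percentage of the gene span from the 5′ end (Insr from the high-coordinate end), 1 row per gene with its span in kb, with point area in proportion to the fold enrichment. Peaks of Irs1 and Irs2 lie towards both ends with none between 17.7% and 91.5% of the span, the strongest Igf1r and Igf2r peaks lie beyond 97%, and Igf2 has no point.

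The adaptor genes had the highest enrichment. All 7 of their peaks lay above the upper quartile of protein-coding peaks, 10.3, as did 7 of the 35 peaks of the other members. Irs2 had 5 peaks, with a fold enrichment of 19.96 (13.8 to 27.9) at chr8:11007501-11008942, 18.5 (13.7 to 24.6) at chr8:10985958-10987185, 16.9 (11.8 to 23.4) at chr8:11005455-11007338, 12.5 (8.35 to 18.2) at chr8:11004480-11005224 and 11.0 (8.09 to 14.7) at chr8:10985111-10985399. The first ranked 671st of the 26584 peaks. Its background was low, 0.654, under 32 fragments, so that the 1 added to it makes up most of the divisor. The intervals of all 5 overlapped.

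The Irs2 peaks fell into a pair of groups at the ends of the gene. At the 5′ end 3 peaks were separated by gaps of 162 and 230 bases. The first of them reached 13 bases beyond the Irs2 start, and its summit lay 557 bases past it. That summit also lay 522 bases inside the long non-coding RNA gene 9530052E02Rik, which starts within Irs2 and runs the other way, so this peak too cannot be told apart between the 2 genes. It was the only peak of that lncRNA gene. Without it, the highest Irs2 value was the 18.5 near the 3′ end. The 5′ group covers the start-side part of the gene, where background knowledge places most of the Irs2 coding sequence.

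Irs1 had 2 peaks. The stronger, 15.9 (12.5 to 19.9) from 73 fragments over a background of 3.65, covered 4459 bases at chr1:82286748-82291206 and was the 32nd widest of the list. Its near edge lay 233 bases from the Irs1 start and its summit 3889 bases past it. The whole coding sequence of Irs1 is known to lie in a single exon at that end of the gene. The other peak, 10.9 (8.31 to 14.0) at chr1:82237030-82237759, lay at 92.5% of the span, and the 2 intervals overlapped. Both adaptor genes thus had peaks at the start side and near the 3′ end, and 48988 bases of Irs1 and 17294 bases of Irs2 between them had none.

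The highest pileups of the members, over the highest backgrounds, were those of the widest peaks of Igfbp5 and Igfbp3. Other binding protein peaks ran down to 11 fragments over a background of 1.55. Igfbp5 had 189 fragments over a background of 19.6 at chr1:72858437-72862652, a fold enrichment of 9.22 (7.96 to 10.6) over 4216 bases, the 39th widest peak of the list and 116th by q-value. A narrower peak near the start, at chr1:72873817-72874164, reached 9.48 (7.35 to 12.0) from 65 fragments. These did not differ beyond their intervals. Peaks of 6.44 (4.88 to 8.35) at chr1:72863876-72864231 and 5.26 (3.78 to 7.15) at chr1:72863169-72863383 lay between them. The last of these stood below the wide peak beyond the counting intervals.

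Igfbp3, the gene of the main carrier of IGFs in blood, had 5 peaks in a span of 9.41 kb. The widest, 9.88 (8.36 to 11.6) at chr11:7206298-7207672, held 149 fragments over a background of 14.2, with its summit 812 bases from the 3′ end. The highest, 10.7 (8.24 to 13.6) at chr11:7210064-7210407, held 63 over 4.998. Both stood above the peak of 4.70 (2.54 to 8.10) at chr11:7213205-7213621, which had 11 fragments and a summit 471 bases past the Igfbp3 start. The other 2 had 7.34 (5.63 to 9.42) and 6.75 (4.87 to 9.13). Igfbp4 had a single peak of 8.96 (6.14 to 12.7) from 30 fragments, 203 bases wide, at chr11:99048107-99048309, which was 6923 bases past the start.

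**Figure D3:**
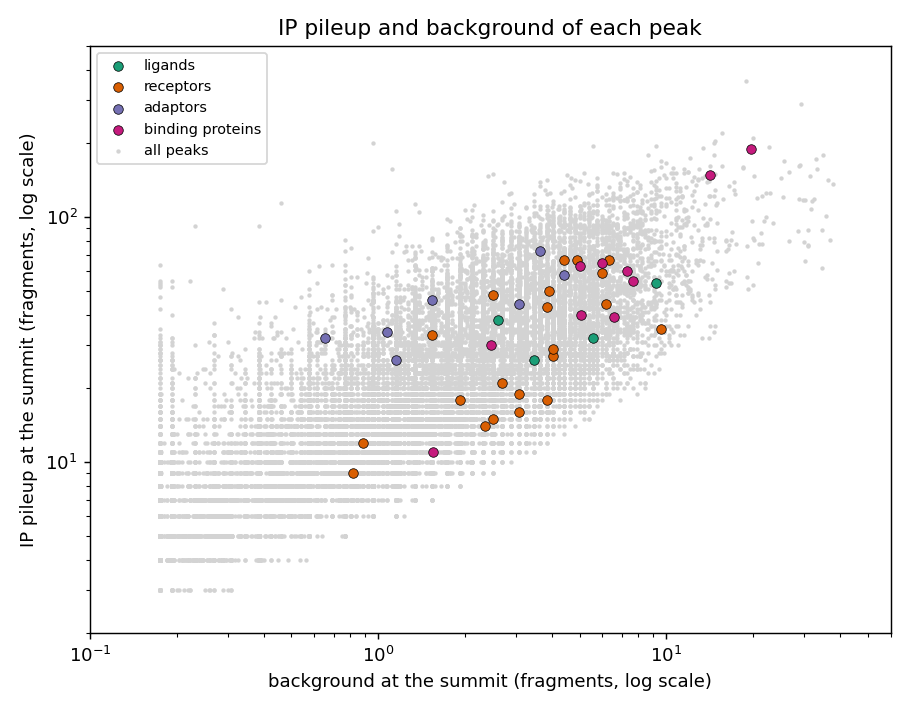
IP pileup against background at the summit, both in fragments on log axes, for the 42 peaks coloured by the role of the gene and for all 26584 peaks in grey. The binding protein peaks reach 189 fragments over a background of 19.6, and the adaptor peaks have 26 to 73 fragments over backgrounds of 0.654 to 4.42.

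Ordered by the strongest peak, Irs2 (19.96) came first, followed by Irs1 (15.9), Igf1r (14.0), Insr (13.4), Igf1 (10.8), Igfbp3 (10.7), Igfbp5 (9.48), Igfbp4 (8.96) and Igf2r (8.62). Each gene's interval overlapped that of its neighbour in this order. The Irs2 interval, 13.8 to 27.9, lay above those of Igfbp3, Igfbp5, Igfbp4 and Igf2r and overlapped the rest. By the median over a gene's peaks the first 2 were again Irs2 (16.9) and Irs1 (13.4). The lowest medians were those of Igf2r (4.57), Igf1 (5.72) and Igf1r (5.96). The Igf2r median includes the 3 peaks shared with Airn. Its unshared peaks had 8.62 and 4.57, so its last place by median depends on the shared ones. By role, the median over peaks was 15.9 for adaptors, 8.15 for binding proteins, 6.29 for receptors and 5.72 for ligands, at median backgrounds of 1.54, 6.28, 3.84 and 4.52 fragments. The background therefore differed between roles along with the enrichment, and its part in the order was not tested. The ligand peaks were all of Igf1, and 5 of the 7 adaptor peaks were of Irs2.

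The genes also differed in how much of the span lay under peaks. This was 30.6% for Igfbp5, 27.4% for Igfbp3, 23.0% for Irs2 and 8.90% for Irs1, and between 1.60% and 2.56% for Igfbp4, Igf1, Igf1r, Insr and Igf2r. Spans include introns, and exons were not used here. Of the 42 peaks, 6 (14.3%) were over 1 kb wide, against 10.4% of protein-coding peaks. These 6 were in Irs1, Irs2, Igfbp3 and Igfbp5.

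In the 8 genes with both a peak and a RefSeq start, 12 of 37 summits (32.4%, 19.6 to 48.5) lay in the last 10% of the span, against 29.0% of summits in all protein-coding genes placed the same way. In the first 10% lay 7 (18.9%, 9.48 to 34.2), against 12.1%, and within 1 kb of a start 6 (16.2%, 7.65 to 31.1), against 12.4%. Both of these counts include summits that cannot be assigned to a single gene. They are those 947 and 242 bases past the Igf2r start, shared with Airn, and 557 bases past the Irs2 start, shared with 9530052E02Rik. The intervals treat peaks as separate draws although several share a gene, and each includes the value for all protein-coding genes.

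In the wider pathway, 42 of 58 other genes had a peak (72.4%, 59.8 to 82.2), against 44.9% of protein-coding genes. They had 123 peaks in all and a median strongest fold enrichment of 11.5. The same median was 10.8 in the members and 9.36 in all protein-coding genes with a peak. A strongest value tends to rise with the number of peaks. Members with a peak had a median of 5 peaks, against 2 in all protein-coding genes with one. The part of peak number in these medians was not tested. Neither insulin gene, Ins1 or Ins2, had a peak, and neither had the insulin receptor-related gene Insrr. Of the other binding proteins and their regulators, 6 of 10 had one, led by Igfbp7 at 17.8 (13.1 to 23.7) and Stc2, an inhibitor of the protease that cleaves Igfbp4, at 15.8 (11.0 to 22.0). Of the other adaptors 8 of 11 had one, led by Sh2b1 at 15.9 (12.2 to 20.5) and the Ras activator gene Sos1 at 12.2 (8.93 to 16.3).

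Downstream of the adaptors, 11 of 13 genes of the PI3K and Akt branch had a peak, where 44.9% of protein-coding genes did. This and the counts that follow come from short lists, and nothing particular to a branch is read from them. Phlpp2, a phosphatase that removes an activating phosphate from Akt, reached 33.4 (26.4 to 41.7), and Pik3r1, the regulatory subunit that binds Irs proteins, 24.7 (21.0 to 28.9). In the mTOR branch 7 of 9 had a peak, with 21.0 (15.9 to 27.3) in Rictor and 14.2 (9.97 to 19.7) in Rptor, the defining subunits of the 2 mTOR complexes. Of the Akt targets 5 of 7 had one, with 21.6 (17.3 to 26.8) in the transcription factor gene Foxo3 and 17.2 (12.0 to 23.8) in Tbc1d4, a regulator of glucose transporter traffic. All 5 phosphatase and feedback genes had one, with 12.5 (8.27 to 18.3) in Socs3 and 12.0 (8.40 to 16.6) in Ptpn1. The Phlpp2 interval overlapped that of the strongest Irs2 peak, which reached 27.9.

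**Figure D4:**
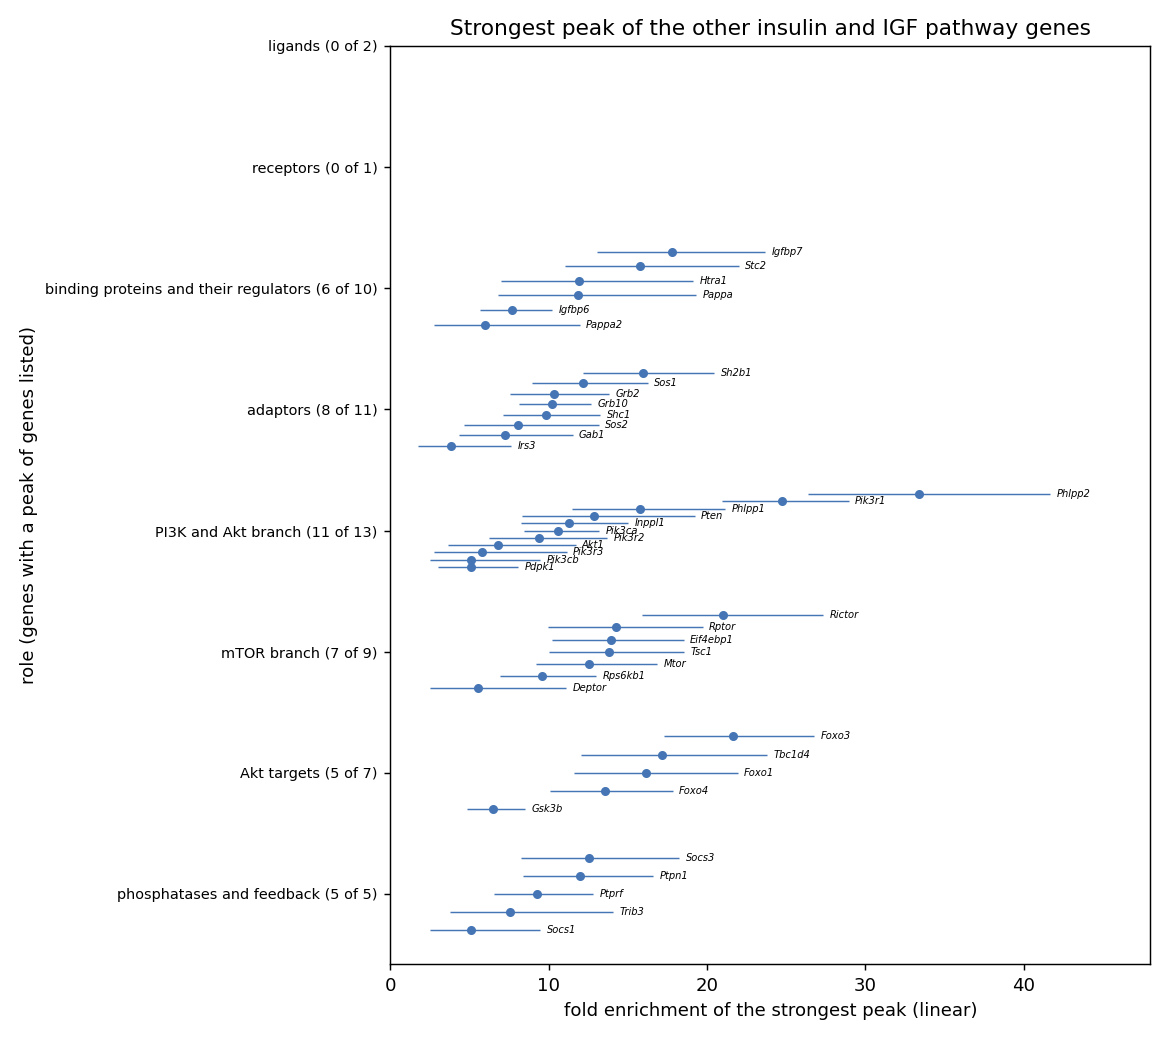
Fold enrichment of the strongest peak (linear axis) of each of the 42 other pathway genes with a peak, by role, with bars for the 95% Poisson interval of the IP pileup and, beside each role, the genes with a peak of those listed. Phlpp2 at 33.4 and Pik3r1 at 24.7 stand highest, and the insulin genes and Insrr have no point.

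The labelled tissue was checked against short lists of markers, with 44.9% of protein-coding genes having a peak. Peaks were present in 6 of 6 stromal, 4 of 5 epithelial, 4 of 4 smooth muscle and 3 of 3 endothelial markers of the uterus, in 1 of 4 immune, 0 of 3 preimplantation embryo and 1 of 4 ovary and oviduct markers. They were also present in 3 of 4 fat markers and in 4 of 4 liver markers, Alb, Apoa1, Ttr and Serpina1a. The 10 liver marker peaks had 5 to 30 fragments over backgrounds of 0.175 to 1.92. The backgrounds of the Igf1 peaks, 2.61 to 9.23, the Igfbp4 peak, 2.46, and the Igfbp5 peaks, 5.96 to 19.6, all lay above that range. Those of the Igfbp3 peaks ran from 1.55 to 14.2, and the lowest, with 11 fragments, lay inside both liver ranges. Backgrounds within the liver range were also found in Irs2 (0.654, 1.08, 1.15 and 1.54), Insr (0.884 and 1.54) and Igf1r (0.815 and 1.92). Of those, Irs2 at 1.15 (26 fragments), Insr at 0.884 (12) and Igf1r at 0.815 (9) and 1.92 (18) lay inside both ranges. The medians over peaks in all protein-coding genes, 19 fragments and a background of 1.58, lay inside both ranges as well. Neither range is therefore particular to liver. The fat marker peaks had 8 to 21 fragments over backgrounds of 0.175 to 0.192, lower than the background of any member peak. Igf1 and several Igfbp genes are known to be expressed in liver too, and the part of liver or fat RNA in the members' peaks was not tested.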

How the data were processed

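The peaks of 1 anti-m6A IP library of mouse uterus were analysed. The submitters' processing notes name the aligner HISAT2 2.2.1, the peak caller MACS3 3.0.0a7 and mm10, with no options. The deposited file gives each peak a score, a fold enrichment (a ratio) and −log10 p and q, made by the authors' peak caller and used only to describe peaks within the list.

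Pileup and background were solved from the deposited fold and −log10 p, assuming a Poisson tail. The pileup came out whole, to 0.05 of a step, for 99.97% of peaks, including all 42 described. Tested on simulated data made with the same formula, the solver gave back the pileup for 2000 of 2000 peaks, which checks the solving and not the formula. Intervals are exact Poisson for pileups, with the background taken as known, and Wilson for shares. Fragments copied by PCR are not separate molecules, so the intervals cover counting error alone.

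A peak belonged to every gene whose RefSeq span on GRCm38.p6 held its summit. Starts and strands came from the RefSeq promoter table, which held 9 of the 10 members. Coordinates count from 1, and distances to a start or a span end are taken from the summit unless an edge is named. The members, lists and tests were chosen with earlier results of these data known. All members are named, and from the wider list the 2 highest of each role in which at least 3 genes had a peak. Ins1, Ins2 and Insrr, in roles with no peak, and the 4 liver markers were named after their values were seen. The alternatives tried are given with their effect in the closing section. Python 3.11.15 was used with scipy 1.17.1, pandas 2.3.3, numpy 2.4.6 and matplotlib 3.10.9.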

Additional observations from a re-analysis of the deposited data

How the results depend on the processing

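The count of 9 members with a peak was the same under each of the 5 alternatives that could change it (−log10 q of at least 5, fold of at least 4, any overlap, 50% overlap, shared summits left out), and the number of their peaks lay between 38 and 43. The number of wider pathway genes with a peak lay between 39 and 42, and the median fold enrichment of the members' peaks between 7.34 and 9.12, also counting 0.5 added in place of 1 and a pileup of at least 10. For all protein-coding genes the percentage with a peak, 44.9%, moved to 41.3% with −log10 q of at least 5, 43.9% with fold enrichment of at least 4 and 40.9% with shared summits left out. With 0.5 added in place of 1, the highest value of Irs2 moved to 28.2, outside its counting interval, because its background is under 1. With the median of all peaks in a gene used in place of the highest, Igf1, Igf1r, Insr, Igf2r and Igfbp3 came to lie below the interval of their strongest peak. The 3 peaks with −log10 q under 5 were 1 each in Igf1r, Igf2r and Igfbp3. No paired analysis was possible because there is 1 library of each kind and no test between samples.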
